A study of Mus musculus with 6 samples.

Results

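The carboxylesterases are serine hydrolases of the endoplasmic reticulum that cleave ester bonds in drugs, fatty acid esters and stored lipids, and the liver is a major site of their expression. In the mouse the Ces genes have multiplied in tandem, so that several close relatives are expressed in hepatocytes. Some of them release fatty acids from triacylglycerol for very low density lipoprotein (VLDL) assembly, some are secreted into plasma, and several are known in mouse liver to be induced through the xenobiotic receptors CAR (Nr1i3) and PXR (Nr1i2).

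Signal of 10 of these genes (Ces1c, Ces1d, Ces1e, Ces1f, Ces1g, Ces2a, Ces2c, Ces2e, Ces3a and Ces3b) was examined among 19938 genes with a probe of their own. A gene entered through its brightest probe, by mean over all arrays, among probes annotated to it alone. The genes were selected on the diet differences of these same log2 signals, so those differences are given as a description, with no test. Of the 10, 9 had such a probe, 1 each, and all 9 passed the minimum mean signal that 10977 genes passed. Ces2c is not analysed here.

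Liver of C57Bl6/J offspring was hybridised to 6 Affymetrix arrays, 2 for each of 3 maternal diets. The females, in an experiment whose mice were 4 to 5 weeks old, received isocaloric diets that differed in the oil, at 6 g%: flaxseed oil in the ALA diet (alpha-linolenic acid, 31.6%), coconut oil in the SFA diet (saturated fatty acids, 48.51%) and soybean oil in the control diet. All males had chow except while mating. Per the labels, livers were taken within 1 day of birth and each array carried a pool of 3 livers. The labels do not say whether the 2 pools of a diet came from different animals, so the p-values below measure only the spread between these arrays, which may be technical.

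The values are log2 signals after RMA (robust multi-array average), a normalization that gives 1 log2 value per probe set. A step of 1 is a doubling of the signal. The number of arrays limits the precision, and the correlation between the 2 arrays of a diet was between 0.977 and 0.986 over all tested genes. Hepatocyte genes such as albumin were high on every array, with a mean over 15 markers between 12.02 and 12.17. Markers of the labelled age were not as clear, and sex-linked genes differed between the ALA and SFA arrays, as described further on.

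RefSeq places all these genes on chromosome 8 in 2 clusters. The first holds 9 carboxylesterase genes, among them Ces1c to Ces1g in that order, and the second holds 10, among them Ces2a, Ces2c, Ces2e, Ces3a and Ces3b. Between the clusters lie 68 other protein-coding genes. The 250 bases before the RefSeq start site were found for 7 members (Ces1c, Ces1e, Ces1g, Ces2a, Ces2c, Ces2e and Ces3b) and named only for Ces1d, Ces1f and Ces3a. The 4 below are shown because Ces3b and Ces1e were among the genes with lower signal on both oil diets, while Ces1c and Ces1g, from the same cluster as Ces1e, differed little between the ALA and control diets. They are read 5′ to 3′ toward the start site in GRCm38.p6, at chr8:105083505-105083754 on the + strand for Ces3b, and on the − strand at chr8:93229620-93229869 for Ces1e, chr8:93131284-93131533 for Ces1c and chr8:93337210-93337459 for Ces1g. Capitals mark matches, on either strand, to the letters of 5 motifs named in the next paragraph.
Ces3b: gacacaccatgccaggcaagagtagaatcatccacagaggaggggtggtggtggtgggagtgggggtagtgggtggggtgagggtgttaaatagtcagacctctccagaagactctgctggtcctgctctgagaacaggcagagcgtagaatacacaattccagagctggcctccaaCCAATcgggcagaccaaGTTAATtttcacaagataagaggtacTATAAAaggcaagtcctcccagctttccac
Ces1e: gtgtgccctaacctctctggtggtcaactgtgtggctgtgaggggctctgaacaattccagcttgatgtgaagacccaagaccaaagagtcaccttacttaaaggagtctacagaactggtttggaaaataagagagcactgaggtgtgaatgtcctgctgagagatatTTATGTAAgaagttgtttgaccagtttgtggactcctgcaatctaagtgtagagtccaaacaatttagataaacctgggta
Ces1c: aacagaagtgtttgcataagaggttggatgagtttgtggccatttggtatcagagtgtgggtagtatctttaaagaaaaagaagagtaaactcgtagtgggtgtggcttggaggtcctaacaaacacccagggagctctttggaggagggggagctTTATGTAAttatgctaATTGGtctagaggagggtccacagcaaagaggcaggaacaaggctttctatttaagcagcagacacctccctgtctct
Ces1g: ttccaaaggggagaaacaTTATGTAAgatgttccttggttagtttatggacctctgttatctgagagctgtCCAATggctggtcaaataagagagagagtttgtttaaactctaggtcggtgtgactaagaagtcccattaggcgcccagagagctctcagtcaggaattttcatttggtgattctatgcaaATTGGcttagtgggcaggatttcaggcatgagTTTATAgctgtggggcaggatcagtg

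The motifs were the TATA box (TATAAA), the CCAAT box (CCAAT), the HNF1 half-site (GTTAAT), the nuclear receptor half-site (AGGTCA) and the D-box (TTATGTAA), which is the site of clock-controlled factors such as Dbp. None of these letter strings contains another. The D-box was added after the sequences had been read. It lay in the windows of Ces1c, Ces1e and Ces1g, with its first base 94, 81 and 232 bases before the start site. It also lay in windows of Ces1a and Ces1b, at 198 and 84 bases, which share that cluster but are not members. Over all 32851 promoter windows it was found in 0.819%. Because it was picked from these sequences, that share is a description and not a test. The Ces3b window held a TATA box 30 bases, an HNF1 half-site 56 bases and a CCAAT box 73 bases before the start site. Over all windows the TATA box was found in 12.4%, the HNF1 half-site in 6.43%, the CCAAT box in 33.8% and the nuclear receptor half-site in 14.0%, against 2, 1, 5 and 1 of the 7 member windows. The Ces1e window held the D-box alone of the 5. These matches describe the letters of the windows. Pairwise, the Ces1c and Ces1g windows were identical at 69.5% of aligned bases and the Ces1e and Ces1g windows at 65.6%, while Ces1c and its neighbour Ces1b, which is not a member, were identical at 93.3% over 223 aligned bases. The probe sequences were not used here, so signal shared between such close relatives cannot be told apart.

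Ces1f, a triacylglycerol hydrolase associated with lipid droplets, had the lowest signal relative to control of all members on the ALA diet. Its log2 signal was 7.28 and 8.15 in ALA livers, 8.61 and 8.44 in SFA livers, and 11.25 and 11.31 in control livers. The control arrays lay within 0.0534 of each other and far above the other 4, and the ALA arrays lay below both SFA arrays. The difference from control was -3.57 for ALA (SE 0.26), a signal 11.9-fold lower, and -2.76 for SFA (SE 0.26), a signal 6.76-fold lower. Both comparisons use the same control arrays. Ranked from the most negative difference among the 10977 tested genes, Ces1f was number 8 for ALA and number 16 for SFA. ALA lay below SFA by -0.81 (SE 0.26), less than the gap of 0.875 between the ALA arrays themselves.

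Ces3b, the last member along the second cluster, had the widest spread within diets. Its log2 signal was 8.21 and 6.39 in ALA livers, 6.55 and 5.52 in SFA livers, and 8.75 and 10.33 in control livers. Both oil diets lay below both control arrays, but the gaps between duplicates were 1.82 for ALA, 1.04 for SFA and 1.58 for control. The difference was -3.51 for SFA (SE 0.71), a signal 11.4-fold lower, and -2.24 for ALA (SE 0.71), a signal 4.73-fold lower. ALA and SFA overlapped in Ces3b, with ALA above SFA by 1.26 (SE 0.71). Its neighbour Ces3a had 11.07 and 10.10 in ALA livers, 10.28 and 10.18 in SFA livers, and 11.41 and 12.03 in control livers. All 4 arrays of the oil diets lay below both control arrays in Ces3a. The Ces3a signal was 2.20-fold lower for ALA (log2 difference -1.14, SE 0.33) and 2.81-fold lower for SFA (-1.49, SE 0.33). In both Ces3 genes the SFA mean was the lowest, ALA lay between and control was the highest, and ALA and SFA did not separate beyond their spread.

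Ces1e, also called egasyn, holds beta-glucuronidase in the endoplasmic reticulum. It lies between Ces1d and Ces1f on the chromosome. Its log2 signal was 7.65 and 8.16 in ALA livers, 8.43 and 8.23 in SFA livers, and 9.25 and 9.20 in control livers. The 3 diets did not overlap, in the order ALA, SFA, control from low to high. The Ces1e signal was 2.50-fold lower for ALA (log2 difference -1.32, SE 0.19) and 1.85-fold lower for SFA (-0.89, SE 0.19). ALA lay below SFA by -0.43 (SE 0.19), less than the gap of 0.517 between the ALA arrays.

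**Figure D1:**
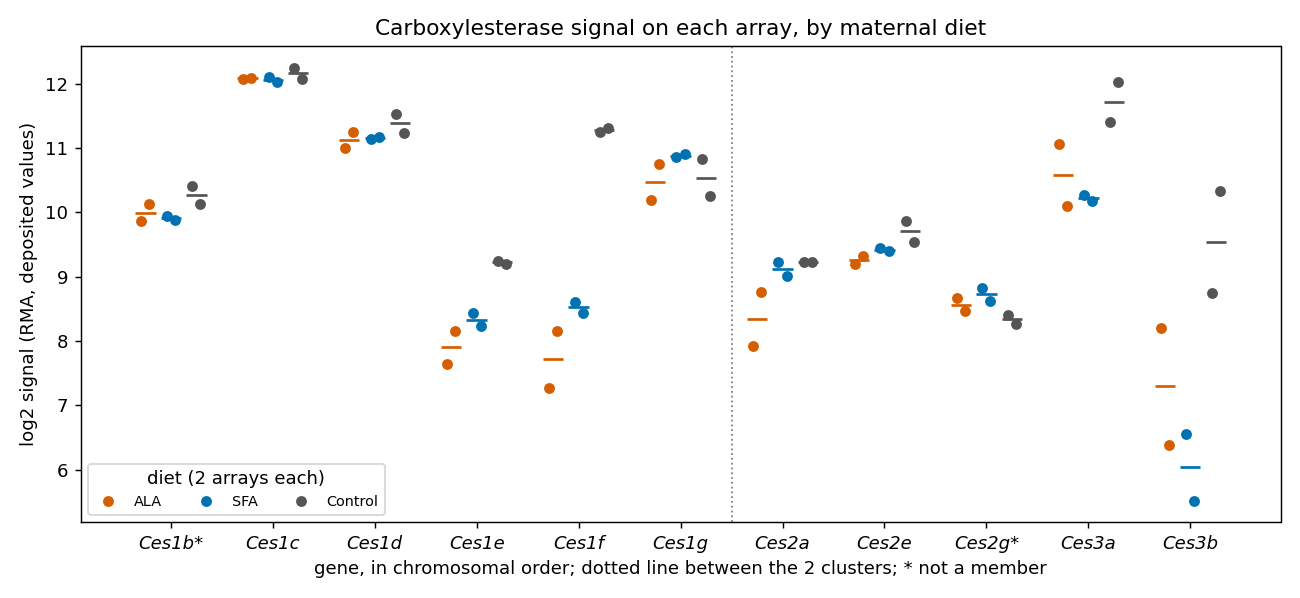
Log2 signal on each array for the 9 measured members and for Ces1b and Ces2g, 2 other carboxylesterases, in chromosomal order. Each point is 1 array, the short bar is the mean of the 2 arrays of a diet, and the dotted line divides the 2 clusters. Ces1f in control livers, at 11.25 and 11.31, stands well above its ALA and SFA points, while the 6 points of Ces1c lie between 12.03 and 12.25.

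The other members of the first cluster differed much less. Ces1c, a carboxylesterase secreted into mouse plasma, had 12.08 and 12.09 in ALA livers, 12.10 and 12.03 in SFA livers, and 12.25 and 12.08 in control livers. All 3 diets overlapped in Ces1c, and its differences from control were -0.08 for ALA and -0.10 for SFA (SE 0.12 each). These values are close to the brightest on the arrays, whose highest signals were 12.67 to 13.12, and the part of that in the small differences was not tested. Ces1d, the triacylglycerol hydrolase known for supplying VLDL lipid, had 11.01 and 11.25 in ALA livers, 11.15 and 11.17 in SFA livers, and 11.54 and 11.24 in control livers. Both oil diets averaged slightly lower than control in Ces1d, by -0.26 for ALA and -0.23 for SFA (SE 0.15 each), with the ALA and control arrays overlapping. Ces1g, which in mouse liver is known to limit lipid synthesis and VLDL output, had 10.19 and 10.75 in ALA livers, 10.86 and 10.90 in SFA livers, and 10.82 and 10.25 in control livers. It was the only member whose SFA mean lay above control, by 0.34 (SE 0.24), and its ALA difference was -0.07 (SE 0.24). Ces1f therefore lay between 2 direct neighbours on the chromosome with unlike values, Ces1e with the differences given above and Ces1g with small ones.

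Ces2 enzymes are known to hydrolyse acylglycerols and esters with a large alcohol group. In Ces2a the ALA diet stood apart from both others, with 7.93 and 8.76 in ALA livers, 9.23 and 9.01 in SFA livers, and 9.23 on each control array. The ALA difference from control was -0.88 (SE 0.26), a signal 1.85-fold lower, against -0.11 for SFA (SE 0.26), and ALA lay below SFA by -0.77 (SE 0.26). The gap between the ALA arrays of Ces2a was 0.834. Ces2e had 9.19 and 9.32 in ALA livers, 9.44 and 9.40 in SFA livers, and 9.87 and 9.54 in control livers. Its diets did not overlap, and the differences from control were -0.45 for ALA and -0.28 for SFA (SE 0.15 each).

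**Figure D2:**
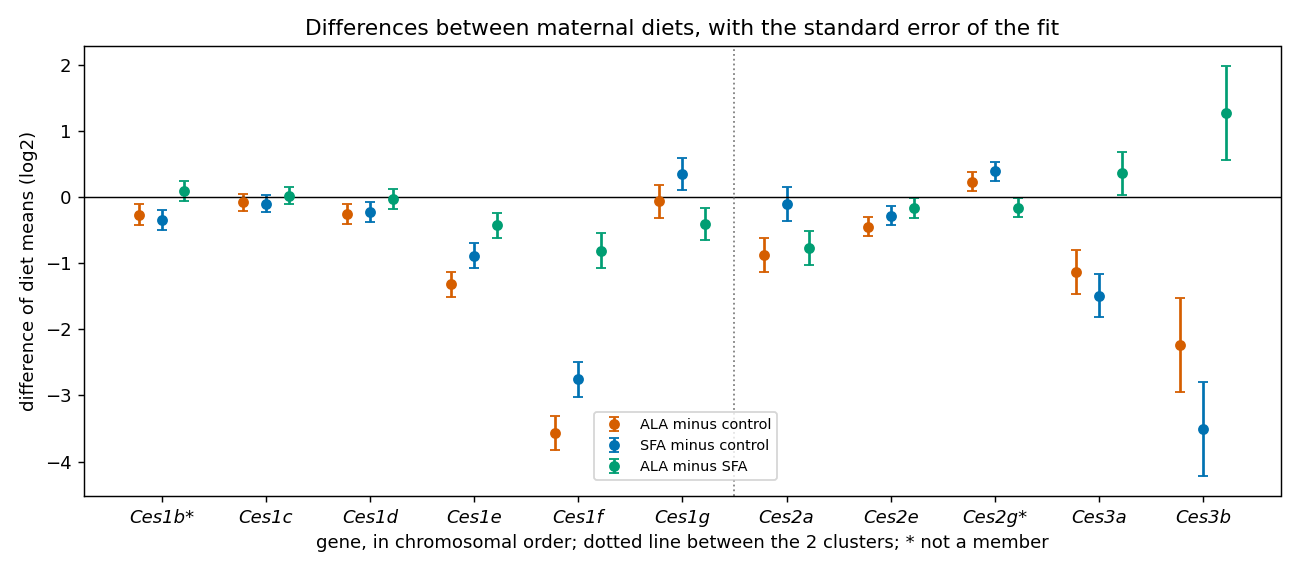
Differences of diet means on the log2 scale, with the standard error of the fit as bars, for the same genes in chromosomal order. The ALA minus control and SFA minus control points of Ces1f are at -3.57 and -2.76 with bars of 0.26, those of Ces3b at -2.24 and -3.51 with bars of 0.71, and those of Ces1c near 0.

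Over the 9 members the median difference was -0.88 for ALA minus control, -0.28 for SFA minus control and -0.17 for ALA minus SFA, beside medians of -0.01, -0.05 and 0.04 over all tested genes. Without ALA replicate 1 the ALA minus control median was -0.47, and the SFA minus control median was -0.12 without Control replicate 1 and -0.44 without Control replicate 2. ALA averaged below control in 9 of 9 members and SFA in 8 of 9. The sign did not hold for all: without Control replicate 1 the ALA differences were 0.0032 for Ces1c and 0.22 for Ces1g. That of Ces1g was 0.21 without ALA replicate 1. Both ALA arrays lay below both control arrays in 6 members (Ces1e, Ces1f, Ces2a, Ces2e, Ces3a and Ces3b), which 28% of all tested genes also did. For SFA against control this held in 6 members (Ces1d, Ces1e, Ces1f, Ces2e, Ces3a and Ces3b) and in 35.7% of all genes. For ALA against SFA it held in 5 members (Ces1e, Ces1f, Ces1g, Ces2a and Ces2e) and in 24.4% of all genes. The members were picked in view of these contrasts, and nothing is read from the counts.

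A linear model over all 6 arrays (limma, Benjamini-Hochberg adjusted p below 0.05) called 871 genes for ALA minus control, 5.11% of the tested genes higher and 2.82% lower. Of the members, 2 (Ces1e and Ces1f, both lower) lay past that threshold, a count set by their selection and not a test. For SFA minus control it called 1512 genes, 6.62% higher and 7.15% lower, and 4 members lay past the threshold, all lower (Ces1e, Ces1f, Ces3a and Ces3b). For ALA minus SFA, 1.09% of genes were called higher and 0.437% lower, and 0 members lay past the threshold. Unadjusted, 2 of the 9 members had a limma p below 0.05 there, as did 2463 of all 10977 tested genes. These counts too are given with nothing read from them.

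The remaining carboxylesterases were low or differed little. Of 9 listed, 7 had a probe and 2 passed the signal minimum. Ces1b, next to Ces1c, had 9.87 and 10.13 in ALA livers, 9.94 and 9.88 in SFA livers, and 10.40 and 10.13 in control livers, with differences from control of -0.27 for ALA (adjusted p = 0.340) and -0.35 for SFA (adjusted p = 0.167). Ces2g had 8.67 and 8.46 in ALA livers, 8.83 and 8.62 in SFA livers, and 8.40 and 8.27 in control livers, with differences of 0.23 (adjusted p = 0.381) and 0.39 (adjusted p = 0.114). In Ces2g both oil diets lay above control without passing the test. Ces1a, Ces2b, Ces2f, Ces4a and Ces5a had mean log2 signals of 3.91 to 4.97, below the minimum of 5, so that no difference is given for them.

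Other liver genes, listed as hydrolases of esters or epoxides together with some related proteins, did not show 1 common direction. Of 48 listed, 47 had a probe and 44 were tested, of which 5 rose and 2 fell on the ALA diet, and 2 rose and 5 fell on the SFA diet, 15.9% each. Their median difference was -0.14 for ALA and -0.01 for SFA. The microsomal epoxide hydrolase Ephx1 fell on the ALA diet by 1.30 on the log2 scale (adjusted p = 0.0241), with 9.64 and 10.26 in ALA livers and 11.49 and 11.01 in control livers. Abhd15, a hydrolase-fold protein of lipid metabolism, rose on both oil diets, by 1.10 for ALA (adjusted p = 0.00708) and 0.75 for SFA (adjusted p = 0.0170). Pnpla2, the adipose triglyceride lipase that starts the breakdown of lipid droplets, rose on the ALA diet by 0.80 (adjusted p = 0.0252), as did Abhd1 by 0.89 (adjusted p = 0.0304). On the SFA diet endothelial lipase Lipg fell by 1.34 (adjusted p = 0.0403), lysophospholipase Pnpla6 fell by 0.84 (adjusted p = 0.0161), and soluble epoxide hydrolase Ephx2 fell by 0.81 (adjusted p = 0.0109). Neither epoxide hydrolase was particular to 1 oil. Ephx2 differed by -0.53 for ALA (adjusted p = 0.0479) and Ephx1 by -0.87 for SFA (adjusted p = 0.0551). Arylacetamide deacetylase Aadac differed by -0.34 for ALA (adjusted p = 0.217). Between the oil diets 1 gene of the list passed, Abhd1, higher on ALA by 1.15 (adjusted p = 0.0402). Refits with 1 array left out, here and below, are not 6 separate checks. Where the array left out is of the diet not compared, both refits are the same fit, that of the 4 arrays compared. With any of the 6 arrays left out, that ALA minus SFA call of Abhd1 and the SFA call of Lipg were lost. The calls of Ephx1, Abhd1 and Pnpla2 on the ALA diet each held in 1 of 6 such fits, and that of Abhd15 in all 6. Those of Pnpla6, Ephx2 and Abhd15 on the SFA diet held in 2, 3 and 3 of 6, each lost without either SFA array, with an adjusted p of at most 0.0939 over all alternatives.

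Of 25 genes of triacylglycerol synthesis, lipid droplets and VLDL assembly, the processes that Ces1d, Ces1f and Ces1g feed into, 21 were tested. On the ALA diet 2 rose and 1 fell (14.3%), on the SFA diet 1 rose and 0 fell (4.76%), and between the oil diets 1 was higher on ALA. For SFA, 7 of the 21 had an unadjusted p below 0.05 by the same limma fit, as did 3503 of all 10977 tested genes. The phosphatidate phosphatase Lpin1 rose by 1.67 for ALA (adjusted p = 0.00246), with 10.90 and 10.76 in ALA livers, 9.96 and 9.92 in SFA livers, and 9.22 and 9.10 in control livers. Its SFA increase was 0.78 (adjusted p = 0.0123), and ALA exceeded SFA by 0.89 (adjusted p = 0.0392), a call that was lost with any array left out. The SFA call of Lpin1 held in 3 of 6 such fits and was lost without Control replicate 2 or either SFA array. The lipid droplet coat protein Plin5 rose by 1.13 for ALA (adjusted p = 0.00728), and Fitm1, a protein of lipid droplet formation, fell by 0.87 (adjusted p = 0.0203), a call lost without any 1 of the ALA and control arrays. In Lpin1 the diets ran in the opposite order to Ces1e and Ces1f, ALA highest and control lowest.

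Of 25 listed regulators of liver genes, 22 were tested, and on the ALA diet 2 rose and 1 fell, on the SFA diet 1 rose and 2 fell (13.6% each), and between the oil diets 1 was higher on ALA. CAR (Nr1i3) fell on the SFA diet by 1.36 (adjusted p = 0.00302). Its log2 signal was 10.38 and 10.34 in ALA livers, 9.20 and 9.22 in SFA livers, and 10.66 and 10.49 in control livers. Both SFA arrays lay below the other 4 arrays. The part of either receptor in the carboxylesterase values was not tested. ALA exceeded SFA in Nr1i3 by 1.15 (adjusted p = 0.0348), a call lost with any array left out. PXR (Nr1i2) rose on both, by 0.81 for ALA (adjusted p = 0.0220) and 0.62 for SFA (adjusted p = 0.0345). The pioneer factor Foxa1 fell on both, by 0.94 for ALA (adjusted p = 0.0366) and 0.89 for SFA (adjusted p = 0.0327), and Cebpb, a factor of the acute-phase response, rose on the ALA diet by 0.81 (adjusted p = 0.0324). Hnf4a, a master regulator of hepatocyte genes, differed by -0.02 for ALA (adjusted p = 0.958). With an array left out, the call of Nr1i3 on the SFA diet held in all 6 fits, those of Nr1i2 in 3 for ALA and 2 for SFA, those of Foxa1 in 1 for ALA and 3 for SFA, and that of Cebpb in 2. All 5 of the Nr1i2, Foxa1 and Cebpb calls were lost without Control replicate 2, with an adjusted p of at most 0.160 over all alternatives.

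**Figure D3:**
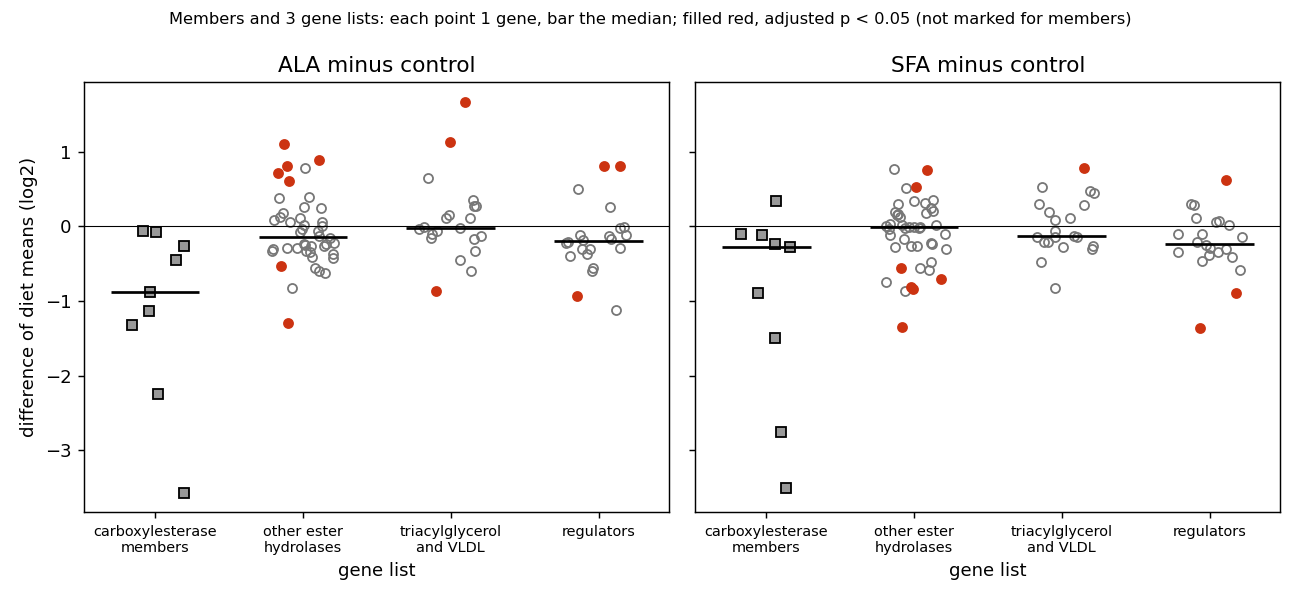
Differences from control on the log2 scale for the 9 members (squares) and 3 lists of other genes (circles), ALA minus control left and SFA minus control right. Each point is 1 gene, the bar is the median, and red points passed an adjusted p of 0.05, which is not marked for members. The 2 lowest squares of each panel lie below every gene of the 3 lists. The members were selected on these differences, so nothing is read from that position.

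The genes whose profile over the 6 arrays came nearest to those of Ces1f, Ces3b and Ces3a, the members with the widest range of diet means, were found by the root mean square difference after each gene was centred on its own mean. For Ces1f they were Plekhb1 (0.386), Gm15998 (0.404) and Csad (0.611), the decarboxylase of taurine synthesis. Csad had 7.25 and 6.85 in ALA livers, 7.32 and 6.95 in SFA livers, and 9.97 and 9.24 in control livers. For Ces3b they were Gm10319 (0.329), the major urinary protein gene Mup3 (0.455) and Wfdc21 (0.475). Mup3 had 9.89 and 8.35 in ALA livers, 8.71 and 8.26 in SFA livers, and 11.50 and 11.96 in control livers, and like Ces3b was higher on the first ALA array than on the second. For Ces3a they were Pdilt (0.163), Neb (0.179) and Ldhd (0.182). The 2 Ces3 genes themselves were 0.944 apart and Ces1f and Ces3b 1.26 apart. Ces1d and Ces2e, from different clusters, were 0.0881 apart. Profiles were not scaled, so these distances also carry the size of the differences. The range of diet means was 0.262 in Ces1d and 0.448 in Ces2e, against 1.49 in Ces3a and 3.51 in Ces3b. Both Ces3 genes ran from SFA lowest to control highest. All distances rest on the same 6 arrays.

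Markers of age and of other cells moved with the diets. The mean log2 signal of 24 genes of the postnatal hepatocyte was 9.54 and 9.25 in ALA livers, 9.32 and 9.33 in SFA livers, and 10.17 and 10.75 in control livers. Of 23 tested, 7 were lower and 2 higher on the ALA diet, and 6 lower and 2 higher on the SFA diet. Their median difference from control was smaller, -0.32 for ALA and -0.19 for SFA, so a few genes weigh on the mean. Hamp had 11.78 and 11.61 in control livers and 3.83 to 5.73 on the ALA and SFA arrays. Cyp2e1 lay between 12.12 and 12.40 on the 6 arrays. The mean of 13 fetal liver genes was 6.37 and 6.83 in ALA livers, 6.81 and 6.94 in SFA livers, and 5.00 and 5.03 in control livers, with 7 of 11 tested higher on ALA and 9 on SFA. Proliferation genes (17) averaged 6.00 and 7.04 in ALA livers, 7.35 and 7.23 in SFA livers, and 5.11 and 5.09 in control livers. Afp, the fetal serum protein, had 4.94 and 5.60 in ALA livers, 6.26 and 6.44 in SFA livers, and 4.52 and 4.81 in control livers. On arrays labelled as newborn liver it was thus below the signal minimum of 5 in control livers and on 1 ALA array. Hsd3b5, a gene of adult male liver, was at 10.84 on Control replicate 2 and at 4.13 to 4.87 on the other 5 arrays. Xist, expressed in female cells, had 3.76 and 4.24 in ALA livers, 9.46 and 9.51 in SFA livers, and 10.67 and 8.34 in control livers. Eif2s3y, a Y-linked gene, had 7.74 and 7.80 in ALA livers, 4.11 and 3.79 in SFA livers, and 3.63 and 7.95 in control livers. Y-linked signal was above the minimum on both ALA arrays, neither SFA array and 1 control array. Xist was below the minimum on both ALA arrays and above it on the SFA and control arrays. Sex and diet therefore cannot be told apart in any ALA minus SFA difference given here. The part of sex in the carboxylesterase differences from control was not tested. Ces3a and Ces3b were higher on Control replicate 2, and without it the SFA minus control differences were -1.18 for Ces3a and -2.71 for Ces3b. The ALA minus control differences without that array were -0.83 for Ces3a and -1.45 for Ces3b.

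Macrophage genes were higher on both oil diets, all 13 passing the test for ALA and 10 for SFA, with a mean of 8.70 and 8.33 in ALA livers, 8.34 and 8.29 in SFA livers, and 7.41 and 7.29 in control livers. Endothelial genes averaged 8.51 and 8.44 in ALA livers, 8.14 and 8.08 in SFA livers, and 7.69 and 7.10 in control livers, and 6 of 12 were higher on each oil diet. Of 12 stellate and mesenchymal genes, 9 were higher for ALA and 11 for SFA. The 15 hepatocyte markers averaged 12.15 and 12.17 in ALA livers, 12.06 and 12.02 in SFA livers, and 12.06 and 12.07 in control livers, with 1 higher for ALA and 0 changed for SFA. These means are close to the highest signals of the arrays, 12.67 to 13.12. The part of that in their small differences was not tested. Of 11 gut markers, 7 (Vil1, Cdx2, Cdh17, Krt20, Muc2, Sis and Lct) were below the signal minimum, as were 6 of 9 pancreas and 8 of 9 kidney markers. The other 4 gut markers, Anpep, Fabp2, Lgals4 and Cdx1, were above it, and 1 of them was called lower for ALA and 2 for SFA. The mean over all 11 was 5.06 and 5.19 in ALA livers, 5.01 and 5.11 in SFA livers, and 5.34 and 5.17 in control livers. Ces1c, whose enzyme hepatocytes make, lay between 12.03 and 12.25 on the 6 arrays. In pooled tissue fewer cells of a type and less RNA per cell cannot be told apart, and the part of these markers in the carboxylesterase differences was not tested.

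**Figure D4:**
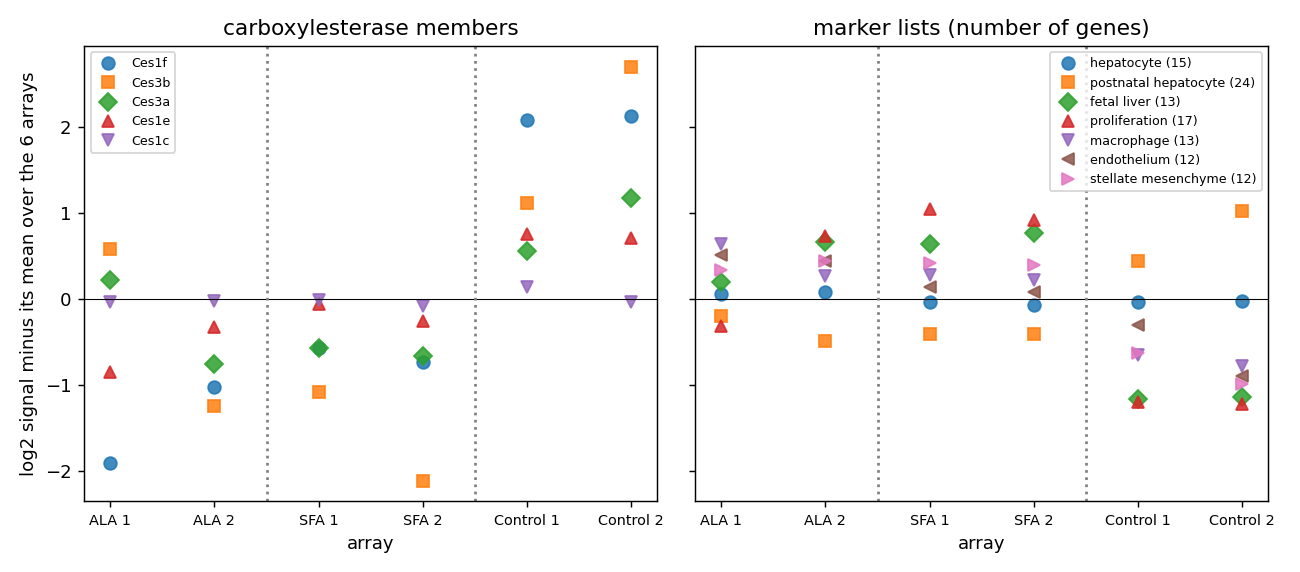
Log2 signal minus its mean over the 6 arrays, for 5 members on the left and the means of 7 marker lists on the right, by array. Ces1f and the postnatal hepatocyte list are highest in control livers, where the fetal, proliferation, macrophage, endothelial and stellate lists are lowest. The hepatocyte list and Ces1c, both close to the brightest signals on the arrays, stay near 0 throughout.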

How the data were processed

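Each array measured RNA of a pool of livers, and groups were taken from the sample titles. The deposited log2 values were made by the authors with RMA and Partek 6.6, per the submitters' processing notes. Background settings are not given in the sources used here. No further scaling was applied.

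Of 35556 probes, 21789 carried 1 gene symbol, 1621 several and 12146 none in the platform annotation, and only the first kind was used. Of these, 21698 were found by Entrez identifier in RefSeq (GRCm38.p6), with 0 symbols changed. Each gene was represented by its brightest probe, and genes with a mean log2 signal of at least 5 were tested. limma 3.58.1 in R 4.3.3 fitted a mean for each diet to all 6 arrays, leaving 3 residual degrees of freedom, with default empirical Bayes moderation and two-sided p-values adjusted by Benjamini-Hochberg over all tested genes. The code was tested on simulated data.

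The members, gene lists and marker lists were chosen with earlier results of these data known. All 10 members were named, with up to 4 called genes of largest change per list and contrast, and the 3 nearest profiles of 3 members. Promoter windows came from RefSeq, and window identity was computed with Biopython 1.88. Alternatives covered the filter, scaling, probe choice, moderation, arrays fitted and a replicate block.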

Additional observations from a re-analysis of the deposited data

How the results depend on the processing

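Over the 14 alternatives the Ces1f difference from control ranged from -4.01 to -3.13 for ALA and from -2.84 to -2.66 for SFA. The members were selected on these contrasts, so neither this nor their counts support a difference. The SFA count of members past the threshold was 2 with trend and robust moderation. Fitting only the 4 arrays compared gave 448 genes and 1 other ester hydrolase for ALA minus control. The other hydrolases called for SFA minus control were 4 with no filter. ALA minus SFA called 168 genes in the fit reported above, 100 after 75th percentile centring, 421 with trend and robust moderation, 293 with a minimum of 6, 32 with no filter, 11 with 4 arrays and 68 after quantile normalization. In the same comparison the other hydrolases called were 0 after centring, with no filter, with 4 arrays and after quantile normalization, and 2 with trend and robust moderation or a minimum of 6.

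Leaving out 1 array at a time, 267 to 475 genes were called for ALA minus control, 245 to 1428 for SFA minus control and 0 to 36 for ALA minus SFA, the lowest without Control replicate 2 in the first and without SFA replicate 1 in the second. Members past the threshold were 1 to 3, 1 to 4 and 0 in the same order, and other hydrolases 1 to 3, 0 to 8 and 0. The family median ranged from -0.88 to -0.47 for ALA minus control (highest without ALA replicate 1), from -0.44 to -0.12 for SFA minus control and from -0.23 to -0.13 for ALA minus SFA. The cause of these shifts beyond the smaller number of arrays was not tested. Without an array of the diet not compared, the fit was the same as that of the 4 arrays compared.

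Arrays with the same replicate number did not deviate together: the correlations of their deviations were 0.0226, -0.0302 and -0.00402, so the numbers were not taken as a pairing. With the replicate block, 719, 1232 and 0 genes were called for ALA and SFA against control and for ALA against SFA, members 2, 4 and 0, and other hydrolases for the last 2 comparisons 4 and 0. The calls of Foxa1 and Cebpb for ALA and of Nr1i2 for SFA, both against control, were lost under the block, as were all 3 named calls of ALA minus SFA.

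Duplicate arrays, the labelled age, the unlike sex-linked signal of the pools and the close similarity of the Ces paralogs limit these values.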
